A study of Mus musculus with 8 samples.

Results

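The genes described here encode the scavenger receptors of the visceral endoderm and the proteins that fold, anchor or couple them to the cell's uptake machinery: Cubn, Amn, Lrp2, Lrpap1 and Dab2. They were taken by gene symbol, 5 of the 21182 symbols in the expression table, and all 5 passed the filter on low values that left 10451 genes for testing. The samples are single whole mouse embryos of the C57BL/6 background at embryonic day E6.75, as 4 embryos of genotype Control and 4 of genotype Tet1/2/3 TKO, which lack the methylcytosine dioxygenases Tet1, Tet2 and Tet3 by their label. The labels name no treatment, litter, sex or batch, and no driver of the deletion. Levels are in RPKM, by that name reads scaled by gene length in kilobases and by each library's mapped reads. The denominator used is not stated. Differences are those of TKO-labelled minus Control embryos on the log2(RPKM + 1) scale. They were tested with limma over all 10451 genes and held against a Benjamini-Hochberg adjusted p of 0.05.

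The visceral endoderm is the absorptive epithelium that covers the egg cylinder and feeds the embryo before a placenta exists. Cubilin, the product of Cubn, is a peripheral receptor with no membrane anchor of its own, and amnionless, the product of Amn, carries it to the apical surface. Megalin, the product of Lrp2, is a giant transmembrane receptor that works beside cubilin in the uptake of lipoproteins, vitamin carriers and other proteins. The receptor-associated protein encoded by Lrpap1 keeps megalin and its relatives from binding ligands too early in the endoplasmic reticulum. Dab2 is the clathrin adaptor that binds the cytoplasmic tail of megalin and links it to AP-2.

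From the lowest RPKM values and GENCODE transcript lengths, the read total behind an embryo was estimated at 9.89M to 19.0M reads, which places about 1124 to 20975 reads behind each value of a member. Counting error at that depth was about 0.69% to 2.98%, below the spread between embryos of a group, which reached 57.5% of the mean for Cubn. Tet1, the check of the label, stood at 4.93 to 5.76 RPKM in Control and at 9.21 to 15.3 RPKM in TKO-labelled embryos, so its level went against a loss of transcript, although exons missing from a transcript do not show in a gene's summed value. Tet3 stood at 1.73 to 2.08 RPKM in Control and at 1.14 to 1.68 RPKM in the embryos labelled TKO, lower without overlap, and Tet2 averaged 0.725 and 0.784 RPKM with overlap. Transcript levels of the 3 targets thus gave no single answer on the label, and each direction below rests on the label. Control replicate 1 was the highest Control embryo for 5 of 5 members, and the group difference of each member is given with and without it. Fits with a marker covariate were not repeated without it. Among all tested genes 1 passed the adjusted threshold, or 0.00957%, and 0 of the 5 members did.

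The stretches upstream of 3 members are shown because TET enzymes act on methylated cytosines in CpG dinucleotides and because these genes are the pair whose levels correlated most closely across embryos (Cubn and Lrp2) and the member with the largest difference (Lrpap1). Each is the 250 bases before the annotated start, from RefSeq on GRCm38.p6, 5′ to 3′ on the gene's strand, with CpG in capitals. The Cubn window is chr2:13491877-13492126 (minus strand), that of Lrp2 chr2:69586030-69586279 (minus strand) and that of Lrpap1 chr5:35105700-35105949 (minus strand).
Cubn: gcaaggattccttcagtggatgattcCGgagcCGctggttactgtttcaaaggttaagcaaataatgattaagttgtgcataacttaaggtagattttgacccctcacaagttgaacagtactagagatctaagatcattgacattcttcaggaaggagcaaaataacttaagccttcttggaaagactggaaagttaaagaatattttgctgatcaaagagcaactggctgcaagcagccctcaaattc
Lrp2: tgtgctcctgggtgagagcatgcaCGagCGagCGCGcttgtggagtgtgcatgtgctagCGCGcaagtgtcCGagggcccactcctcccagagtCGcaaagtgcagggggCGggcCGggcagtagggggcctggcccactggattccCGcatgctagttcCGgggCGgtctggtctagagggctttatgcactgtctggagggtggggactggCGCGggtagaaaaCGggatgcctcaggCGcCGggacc
Lrpap1: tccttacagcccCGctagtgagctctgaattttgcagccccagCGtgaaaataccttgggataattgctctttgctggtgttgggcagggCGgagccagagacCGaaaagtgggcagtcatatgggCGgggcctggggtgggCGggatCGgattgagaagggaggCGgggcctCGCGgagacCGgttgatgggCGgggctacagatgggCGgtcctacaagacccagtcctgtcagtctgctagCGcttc

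A window was found for all 5 members, with a second start for Dab2. Cubn had 2 CpG in its window, fewer than the median of 6 over 32851 such windows, and a GC content of 39.6%. Lrp2 had 18 CpG, more than 78.3% of all windows, Lrpap1 had 14 and Amn had 11. Dab2 had 2 CpG at one annotated start and 17 at the other. The members thus span CpG-poor and CpG-rich starts, and the most closely correlated pair, Cubn and Lrp2, lay at opposite ends of that range. Motifs were searched on both strands as exact letters, in 1 spelling each. Other spellings were not searched, so a window without a match can still hold another form of a site. The GATA motif AGATAA, present in 9.99% of all windows, and the HNF4 motif CAAAGTCCA, present in 0.384%, were in 0 of these 6 windows. The E-box CACGTG, present in 6.02% of all windows, occurred once, upstream of Amn. The short HNF1 motif GTTAAT, present in 6.43%, occurred once, at the CpG-rich start of Dab2. The GC box GGGCGG, present in 32.7%, occurred 5 times upstream of Lrpap1, 2 times upstream of Lrp2 and 1 time upstream of Amn. The deposited values hold no methylation or binding at these stretches.

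Among the receptors, Cubn was measured at 39.7, 19.3, 14.2 and 13.1 RPKM in Control replicates 1 to 4 and at 19.5, 28.5, 35.95 and 28.5 RPKM in TKO-labelled replicates 1 to 4. Control replicate 1 was the highest of all 8 embryos, and the other 3 Control embryos lay below each TKO-labelled embryo. The means were 21.5 ± 12.4 and 28.1 ± 6.74 RPKM (SD, n = 4 each), 0.48 apart in log2 terms with a 95% interval of -0.20 to 1.15 (adjusted p = 0.443 by limma). Without Control replicate 1 the difference was 0.81 (limma adjusted p = 0.130), so the size of the Cubn difference turned on that embryo while the call did not.

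Amn, the membrane partner of cubilin, was measured at 110.2, 81.0, 51.8 and 83.4 RPKM in Control replicates 1 to 4 and at 70.7, 72.5, 76.0 and 52.1 RPKM in TKO-labelled replicates 1 to 4. The Control values spanned all of the TKO-labelled values, and 3 of 4 TKO-labelled embryos lay within 70.7 to 76.0 RPKM. The means were 81.6 ± 23.8 and 67.8 ± 10.7 RPKM, -0.23 apart in log2 terms with a 95% interval of -0.69 to 0.23 (adjusted p = 0.591 by limma). Amn was the member whose mean was lower in TKO-labelled embryos, but not beyond the spread, and the difference was -0.07 without Control replicate 1 (limma adjusted p = 0.878) and -0.43 without Control replicate 3 (limma adjusted p = 0.316).

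Lrp2 was the lowest of the members, at 11.5, 7.96, 5.57 and 7.37 RPKM in Control replicates 1 to 4 and at 7.96, 8.58, 10.1 and 8.73 RPKM in TKO-labelled replicates 1 to 4. All TKO-labelled values lay inside the Control range. The means were 8.11 ± 2.50 and 8.84 ± 0.89 RPKM, 0.15 apart in log2 terms with a 95% interval of -0.25 to 0.54 (adjusted p = 0.700 by limma). Without Control replicate 1 the difference was 0.31 (limma adjusted p = 0.289), and without Control replicate 3 it was 0.00 (limma adjusted p = 0.997). The interval holds a difference of either sign, so megalin transcript was not shown to differ, nor shown to be alike.

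Lrpap1, the chaperone of megalin, had the largest difference among the members. It was measured at 43.2, 26.8, 23.9 and 28.4 RPKM in Control replicates 1 to 4 and at 40.4, 50.5, 65.6 and 57.7 RPKM in TKO-labelled replicates 1 to 4. The groups overlapped by 1 embryo on each side, Control replicate 1 lying just above TKO-labelled replicate 1. The means were 30.6 ± 8.59 and 53.6 ± 10.7 RPKM, 1.75-fold apart, or 0.80 apart in log2 terms with a 95% interval of 0.37 to 1.23. By limma the raw p was 0.00181 and the Benjamini-Hochberg adjusted p 0.155, and the exact two-sided permutation p was 0.0571, above the smallest possible value of 0.0286. Lrpap1 thus missed the threshold, and it also missed it without Control replicate 1 (0.98, limma adjusted p = 0.0974) and without TKO replicate 1 (0.93, limma adjusted p = 0.0888). It was the 1 member of 5 with an unadjusted limma p under 0.05, against 13.9% of all tested genes that passed that p with a higher value in TKO-labelled embryos. For 0 of the 5 members did the groups not overlap, against 7.55% of tested genes whose 4 TKO-labelled values all lay above the Control values.

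Dab2, the adaptor, was the most abundant member, at 152, 87.3, 104.6 and 104.6 RPKM in Control replicates 1 to 4 and at 102, 137, 151 and 145 RPKM in TKO-labelled replicates 1 to 4. Control replicate 1 was level with the highest TKO-labelled embryos, and TKO-labelled replicate 1 with the lower Control embryos. The means were 112 ± 27.6 and 133 ± 21.7 RPKM, 0.26 apart in log2 terms with a 95% interval of -0.13 to 0.66 (adjusted p = 0.461 by limma). Without Control replicate 1 the difference was 0.42 (limma adjusted p = 0.214).

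**Figure D1:**
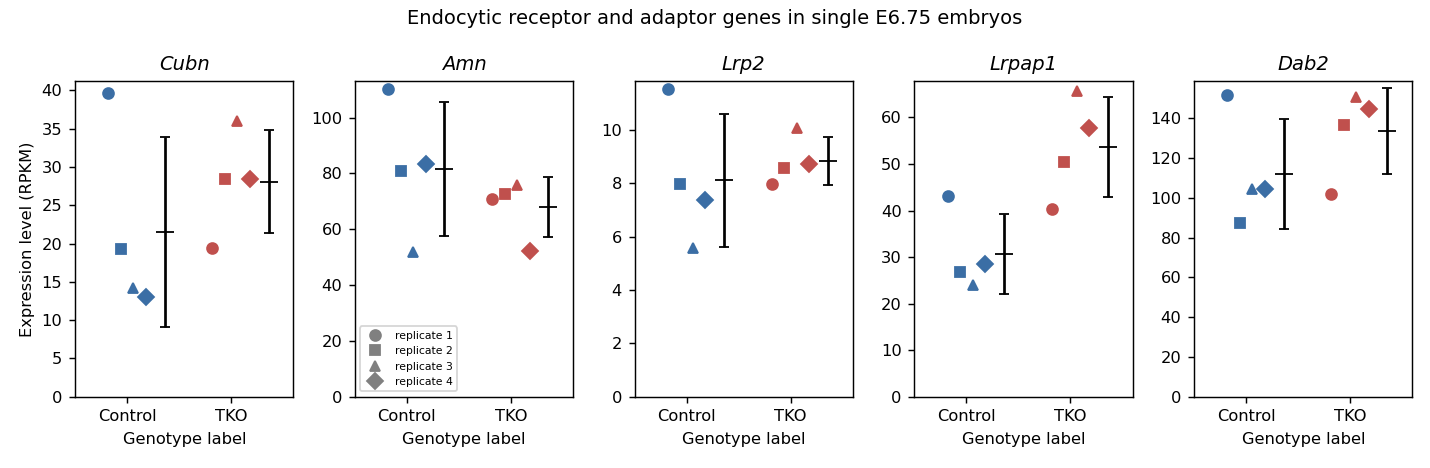
Level of each gene in RPKM (vertical axes, linear and starting at 0, with a scale of its own per gene) in the 4 Control (blue) and 4 TKO-labelled (red) embryos, with the marker shape giving the replicate number and the black bar the mean and SD of 4 embryos. Control replicate 1 is the highest Control embryo for all 5 genes, and TKO-labelled replicate 3 the highest TKO-labelled embryo for all 5. Lrpap1 shows the widest distance between the group means.

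The per-length levels kept nearly the same order in each embryo, with Dab2 highest, then Amn, Lrpap1, Cubn and Lrp2. This order held in 7 of 8 embryos. The exception was TKO-labelled replicate 4, where Lrpap1 stood above Amn. Dab2 exceeded Amn in 8 of 8 embryos, by 1.08-fold to 2.02-fold in Control and by 1.44-fold to 2.78-fold in TKO-labelled embryos. Amn exceeded Lrpap1 by 2.17-fold to 3.02-fold in Control embryos but stood at 0.902 to 1.75 times Lrpap1 in TKO-labelled embryos. Cubn exceeded Lrp2 in 8 of 8 embryos, by 1.77-fold to 3.57-fold. These comparisons depend on the gene models the authors divided by, and coverage along the long Cubn and Lrp2 transcripts (about 14935 and 16701 exonic bases in GENCODE release M21, against 1843 for Amn) was not tested.

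Partners were then compared within each embryo, as the log2 ratio of (RPKM + 1). The embryos were whole, so a ratio takes in every tissue that expresses either gene. The ratio of the receptor Lrp2 to its chaperone Lrpap1 was -1.82, -1.63, -1.92 and -1.81 in Control replicates 1 to 4 and -2.21, -2.43, -2.59 and -2.59 in TKO-labelled replicates 1 to 4. The groups did not overlap: there were 3.36 to 4.30 Lrpap1 RPKM for each Lrp2 RPKM in Control embryos and 5.08 to 6.61 in TKO-labelled embryos. The difference was -0.66, with an exact two-sided permutation p of 0.0286, the smallest that 8 embryos allow, and 0.114 after Benjamini-Hochberg adjustment over the 4 ratios. A lone ratio cannot pass an adjusted 0.05 in this design, so the test does not settle whether it differed. Control replicate 1, which was high for both genes, did not stand apart in this ratio.

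The ratio of cubilin to its anchor, Cubn to Amn, was -1.45, -2.02, -1.80 and -2.58 in Control replicates 1 to 4 and -1.81, -1.32, -1.06 and -0.85 in TKO-labelled replicates 1 to 4. TKO-labelled replicates 2 to 4 lay above all Control embryos, and TKO-labelled replicate 1 lay among them. In RPKM, Amn exceeded Cubn by 2.78-fold to 6.38-fold in Control and by 1.83-fold to 3.63-fold in TKO-labelled embryos. The difference was 0.70 (exact two-sided permutation p = 0.0857, adjusted 0.171). The ratio of the receptors Lrp2 to Cubn differed by -0.33 (exact permutation p = 0.257, adjusted 0.343), and that of the adaptor Dab2 to Lrp2 by 0.12 (exact permutation p = 0.486, adjusted 0.486). The groups overlapped in both. Without 1 embryo the ratio of Lrp2 to Cubn ranged from -0.18 (without Control replicate 4) to -0.49 (without Control replicate 1), and that of Dab2 to Lrp2 from 0.01 (without Control replicate 2) to 0.24 (without Control replicate 3).

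**Figure D2:**
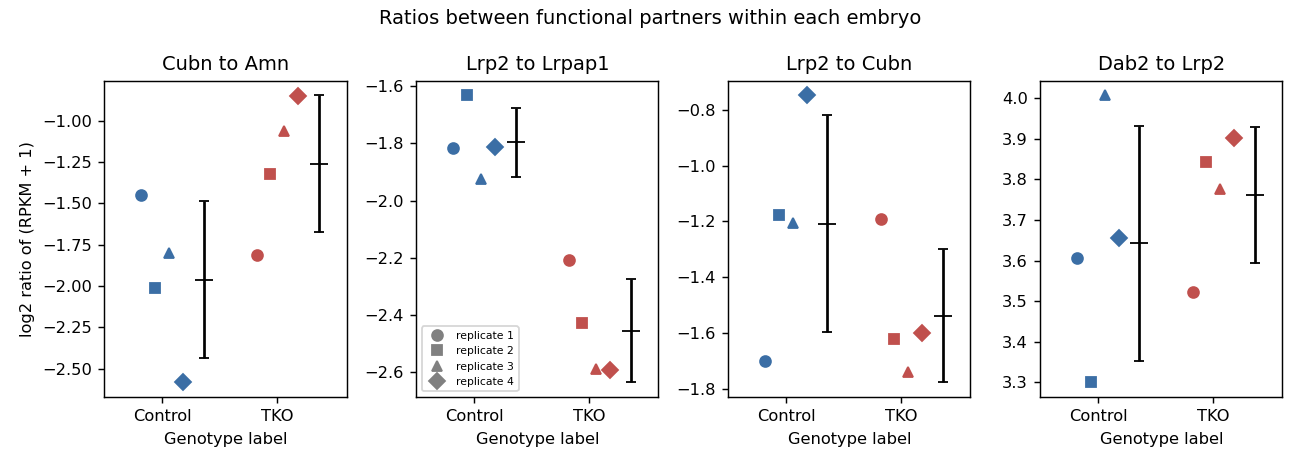
Log2 ratio of (RPKM + 1) between partner genes within each embryo (vertical axes, a scale of its own per ratio), for 4 Control (blue) and 4 TKO-labelled (red) embryos, with the marker shape giving the replicate number and the black bar the mean and SD. Lrp2 to Lrpap1 is the ratio without overlap, at -1.92 to -1.63 in Control and -2.59 to -2.21 in TKO-labelled embryos.

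From embryo to embryo, Cubn and Lrp2 varied together most closely of the 10 pairs of members. Over the 8 embryos their log2 levels had a Pearson r of 0.90 (exact permutation p = 6.94e-04, adjusted over 10 pairs 0.00694) and a Spearman rho of 0.93 (exact permutation p = 0.00223, adjusted 0.0223). Without the 2 embryos farthest from the median of Cubn, Control replicates 1 and 4, r was 0.93, and after removal of each group's mean it was 0.90. Lrpap1 and Dab2 also varied together with Cubn, with r of 0.83 and 0.84, and with each other, with r of 0.84 (exact permutation, adjusted p = 0.0466 for each of these 3 pairs). Their Spearman values (rho 0.76, 0.79 and 0.69) did not pass after adjustment (exact permutation, adjusted p of 0.0735, 0.0735 and 0.116). Cubn and Lrp2 kept an adjusted p under 0.05 in 12 of 12 other settings, whereas the other 3 pairs did so in 2 or 3 of 12.

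Amn stood apart from this pattern. Its r with its partner Cubn was 0.35 (exact permutation p = 0.408, adjusted 0.510), with Lrpap1 0.02 and with Dab2 0.11. With Lrp2 its r was 0.65 (exact permutation p = 0.0776, adjusted 0.111). That r became -0.29 without both Control replicates 1 and 3. Over 12 other settings it was 0.40 to 0.84, with an adjusted p under 0.05 in 0 of them. After removal of the group means the r of Amn was 0.59 with Cubn, 0.83 with Lrp2, 0.56 with Lrpap1 and 0.33 with Dab2.

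The members were set beside marker genes of the visceral endoderm, although the embryos were whole and other tissues can add to a member's level. All 24 visceral endoderm markers were measured, 0 of them at 0 in all embryos, led by Spink3 (group means of 2745 and 2157 RPKM, Control first here and below) and the apolipoprotein gene Apoc2 (661 and 600 RPKM). Their mean log2 level was 4.41 to 5.45 in Control and 4.95 to 5.47 in TKO-labelled embryos, and their summed level 3054 to 7071 and 3326 to 5799 RPKM. Of the 24 differences 19 were positive, against 66.5% of all tested genes, and 0 passed the adjusted threshold, with a median of 0.32, which was 0.51 without Control replicate 1 and 0.21 without Control replicate 3. Control replicate 1, at 5.45, stood with TKO-labelled replicate 3, at 5.47, at the top. In a whole embryo, more visceral endoderm cells and more transcript per cell cannot be told apart.

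Lrp2 followed this marker level with an r of 0.92 (exact permutation p = 6.20e-04, adjusted over 10 relations 0.00620, rho 0.86) and Cubn with 0.91 (exact permutation p = 0.00216, adjusted 0.0108, rho 0.93). Without the 2 embryos farthest from each gene's median these were 0.88 and 0.91. For Lrpap1 r was 0.81 (exact permutation, adjusted p = 0.0410) with a rho of 0.81 (exact permutation, adjusted p = 0.0544), and r was 0.61 without Control replicate 3 and TKO-labelled replicate 3. For Dab2 r was 0.75 (exact permutation, adjusted p = 0.0863) and for Amn 0.55 (exact permutation, adjusted p = 0.213, and -0.09 without Control replicates 1 and 3). After removal of the group means the r of Amn with the markers was 0.88, close to the 0.89 of Cubn.

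With the visceral endoderm marker level as a covariate, the group difference of Cubn was 0.00 (SE 0.19) and that of Dab2 0.07 (SE 0.17). That of Lrp2 was -0.11 (SE 0.13). Lrpap1 kept a difference of 0.54 (SE 0.16, limma p 0.00626, adjusted p = 0.204), and that of Amn was -0.53 (SE 0.15, limma p 0.00496, adjusted p = 0.201). With the covariate the chaperone gene thus had the higher and the cubilin anchor gene the lower values in TKO-labelled embryos. Neither passed the threshold over all genes. Control replicate 1, at a marker level of 5.45, was the only Control embryo inside the TKO-labelled range of 4.95 to 5.47. Control replicates 2 to 4, at 4.80, 4.41 and 4.71, lay below that range. The adjusted differences therefore lean on Control replicate 1 and on the fitted line, and the covariate fit was not repeated without that embryo. In that fit 1211 of all 10451 tested genes had higher and 409 had lower values at an unadjusted limma p under 0.05.

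**Figure D3:**
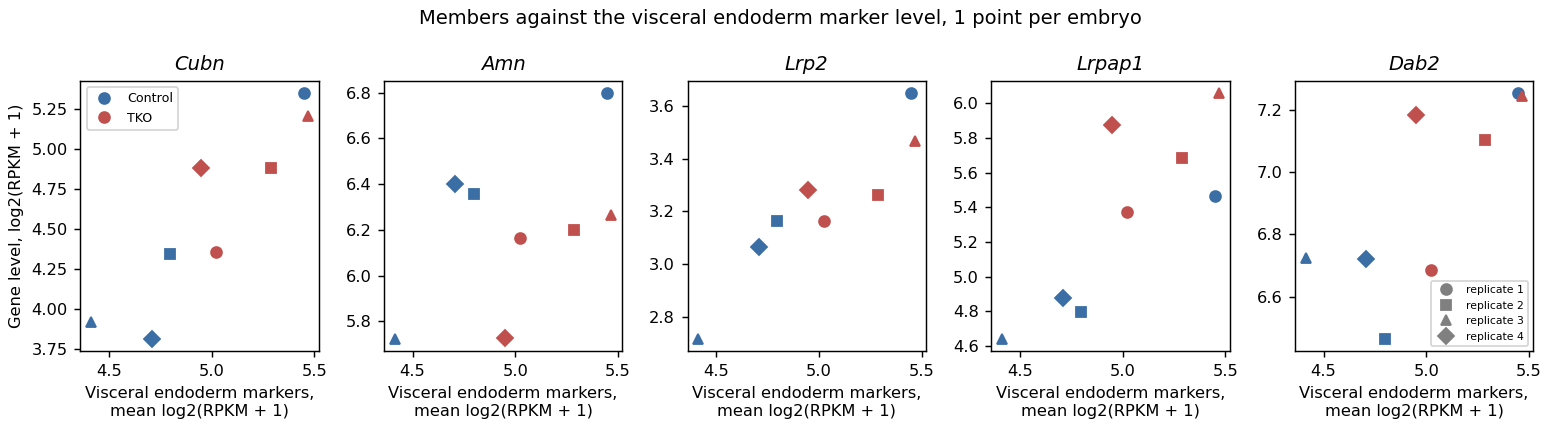
Level of each gene against the mean log2(RPKM + 1) of 24 visceral endoderm markers (horizontal axes), both on log2 scales, with 1 point per embryo (blue Control, red TKO-labelled, shape for the replicate number). Cubn and Lrp2 are higher in embryos with a higher marker level. Only Control replicate 1 has a marker level inside the TKO-labelled range. TKO-labelled replicate 3, of like marker level, lies below it for Amn (76.0 against 110.2 RPKM) and above it for Lrpap1 (65.6 against 43.2 RPKM).

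Parietal endoderm, a sister tissue that faces the trophoblast and also expresses Dab2, had higher marker levels in most TKO-labelled embryos. Its 13 tested markers had a mean log2 level of 2.93 to 4.04 in Control and 3.51 to 5.54 in TKO-labelled embryos. All 13 differences were positive, with a median of 1.24, and 0 of 13 passed the adjusted threshold. Without TKO replicate 1, whose level of 3.51 was the lowest of its group, 7 of 13 passed with higher values. In that fit 29 of all 10314 tested genes passed with higher and 7 with lower values. Without any other single embryo 0 of these markers passed. Of the markers, 0 were at 0 in all embryos. The summed level was 169 to 342 and 289 to 961 RPKM. Sparc, the most abundant, averaged 89.6 and 209 RPKM, and the proteoglycan gene Srgn 58.2 and 143 RPKM. Lrpap1 followed this level with an r of 0.84 (exact permutation p = 0.0147, adjusted over 10 relations 0.0410, rho 0.88), and with 0.72 without Control replicate 3 and TKO-labelled replicate 3. For Dab2 r was 0.73 (exact permutation, adjusted p = 0.0891), for Cubn 0.53, for Lrp2 0.42 and for Amn -0.13 (exact permutation, adjusted p of 0.213, 0.350 and 0.761). Without the 2 embryos farthest from each gene's median r was 0.93 for Dab2, 0.93 for Cubn, 0.76 for Lrp2 and -0.32 for Amn. After removal of the group means r was 0.62 for Lrpap1, 0.65 for Dab2, 0.34 for Cubn, 0.32 for Lrp2 and 0.20 for Amn. The r with this level over all 8 embryos also holds the difference between the groups, which its permutation p does not set aside. With this level as a covariate the difference of Lrpap1 was 0.42 (SE 0.25, limma adjusted p = 0.454) and that of Dab2 -0.10 (SE 0.22). TKO-labelled replicate 1, at 3.51, was the only embryo of its group inside the Control range of 2.93 to 4.04. The level thus went largely with the group label, and this fit could not separate them. The part of either tissue in the Lrpap1 difference was not tested further.

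**Figure D4:**
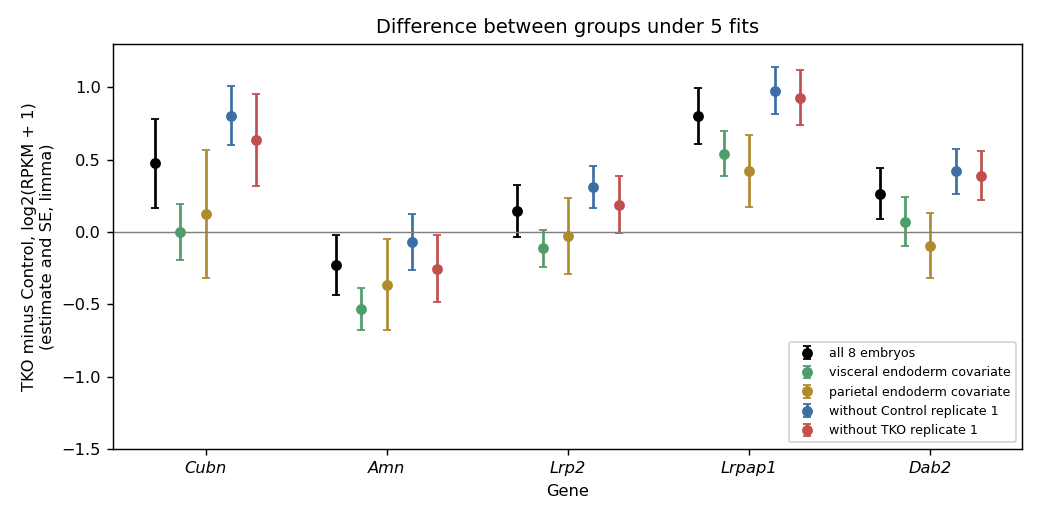
Difference of TKO-labelled minus Control embryos for each gene on the log2(RPKM + 1) scale (vertical axis, estimate and SE from limma) in all 8 embryos, with the visceral or parietal endoderm marker level as a covariate, and without replicate 1 of either group. Lrpap1 stays above 0 and Amn below 0 in all 5 fits shown, whereas Cubn is at 0.00 with the visceral endoderm covariate.

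Maternal decidua, which can adhere to a dissected embryo, varied widely in both groups. Its prolactin family gene Prl8a2 stood at 1.32 to 336 RPKM in Control embryos and at 11.8 to 354 RPKM in those labelled TKO, and the chaperone gene Cryab at 0.90 to 129 and 7.07 to 54.4 RPKM. Of the Control embryos, replicate 2, with the lowest Prl8a2 level, had 7.96 RPKM of Lrp2 and replicate 3, with the highest, had 5.57 RPKM. Of the TKO-labelled embryos, replicate 3, with the highest Prl8a2 level of all 8, also had the highest Lrp2 level, at 10.1 RPKM. The part of decidual RNA in the members' levels was not tested. Of the 10 decidua markers 6 were tested, with 0 positive differences and a median of -0.75. The median was 0.08 without Control replicate 3 and -1.501 without Control replicate 2. In the latter fit 5 of 6 had lower values at an unadjusted limma p under 0.05, against 398 of all 10375 tested genes. Over all 8 embryos, and without any other single embryo, 0 decidua markers did. The blood markers S100a8 and S100a9 were at most 26.8 and 2.04 RPKM in any embryo and listed at 0 in some. The 10 epiblast markers, led by Dnmt3b (317 and 324 RPKM) and Pim2 (115 and 118 RPKM), had a median difference of 0.40, which was 0.23 without Control replicate 1. Those of extraembryonic ectoderm and trophoblast, led by Eomes (51.7 and 53.0 RPKM) and Elf5 (36.5 and 27.1 RPKM), had one of 0.13, which was 0.02 without Control replicate 3 and -0.02 without TKO replicate 1. Elf5 had an unadjusted limma p of 0.0405 and an adjusted p of 0.264.

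The genes whose levels were most like those of the members were listed by Pearson r of log2 levels over the 8 embryos, among 6064 genes of at least 5 RPKM, as a description without a test. Nearest to Cubn were Gigyf2 (r 0.98), the apolipoprotein M gene Apom (0.97), itself on the visceral endoderm list, and Tor1aip1 (0.97). Nearest to Lrp2 were Mfsd1, a lysosomal membrane protein gene (0.98), Mttp, which loads lipid onto apolipoprotein B (0.98), and the tetraspanin gene Cd63 of late endosomes (0.96). Nearest to Amn were the endosomal chloride transporter gene Clcn3 (0.98), the amino acid transporter gene Slc38a4 (0.95) and the nucleoporin gene Tmem48 (0.94). Nearest to Lrpap1 were Nxf7, an RNA export factor relative (0.98), the planar polarity gene Vangl1 (0.98) and Nfxl1 (0.98). Nearest to Dab2 were the ubiquitin ligase gene Wwp1 (0.98), N6amt1 (0.97) and the endosomal SNARE gene Stx12 (0.97). The 5 sets of 3 shared 0 genes.

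The wider uptake pathway was described by lists, each set beside all tested genes, whose median difference was 0.09, of which 66.5% had positive differences and of which 0.00957% passed the adjusted threshold. In each of the 4 pathway lists given here 0 genes passed it. Of the 20 genes of the clathrin coat and its AP-2 partners, which pinch receptors off into vesicles, 13 had positive differences with a median of 0.09, which was 0.04 without Control replicate 2 and 0.14 without TKO replicate 2. The leading ones were Hip1, which links clathrin to actin (3.69 ± 0.67 and 4.73 ± 0.53 RPKM, log2 difference 0.30, limma adjusted p = 0.285), and the AP-2 subunit gene Ap2a1 (2.65 ± 0.66 and 3.67 ± 0.87 RPKM, 0.35, limma adjusted p = 0.323).

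Among the ligands that cubilin and megalin take up, 11 of 17 genes were tested, 8 with positive differences and a median of 0.31, which was 0.69 without Control replicate 1 and 0.10 without Control replicate 3. Rbp4, the retinol carrier cleared by megalin, was measured at 52.9, 26.3, 24.4 and 22.7 RPKM in Control replicates 1 to 4 and at 49.9, 74.7, 63.8 and 47.8 RPKM in TKO-labelled replicates 1 to 4. Only Control replicate 1 lay inside the TKO-labelled range (log2 difference 0.95, SE 0.25, limma adjusted p = 0.160). Tcn2, which carries vitamin B12 to megalin, averaged 6.66 ± 3.16 and 11.3 ± 3.58 RPKM (0.71, limma adjusted p = 0.239). With the visceral endoderm covariate the median of the ligand list was -0.01, but 5 of its 17 genes, Rbp4 among them, are also on the visceral endoderm list.

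Endosomal genes, which sort the receptors after uptake, had a median difference of 0.18, with 27 of 29 positive. The median was 0.09 after median-ratio scaling, where that of all genes was 0.01. With limma's unadjusted p under 0.05, 12 had higher and 1 had lower values. The 12 became 6 after median-ratio scaling. They became 5 without Control replicate 3, TKO replicate 3 or TKO replicate 4, and 6 without Control replicate 2 or 4. The count was 12, 10 and 9 without Control replicate 1, TKO replicate 1 and TKO replicate 2. Of all tested genes, 836 of 10309 (without TKO replicate 4) to 1573 of 10340 (without TKO replicate 2) had higher values at that p. With the visceral endoderm covariate 4 of 29 did, against 1211 of all 10451 tested genes. In that fit 21 of 29 differences were positive, against 6607 of 10451. Median-ratio scaling moved the share of all tested genes with higher values at that p from 13.9% to 7.53%. It moved the share higher among all genes at that p from 79.4% to 51.9%. The sorting nexin gene Snx3 stood at 134, 99.7, 114 and 128 RPKM in Control replicates 1 to 4 and at 191, 143, 174 and 232 RPKM in TKO-labelled replicates 1 to 4 without overlap (log2 difference 0.62, SE 0.16, limma adjusted p = 0.156). Ehd4, a membrane remodelling ATPase of endosomes, averaged 7.32 ± 1.05 and 10.5 ± 0.66 RPKM, also without overlap (0.48, SE 0.12, limma adjusted p = 0.156). Rab7, the late endosome GTPase, was singled out after its values were seen. It was measured at 7.85, 2.36, 6.16 and 6.02 RPKM in Control replicates 1 to 4 and at 35.2, 7.56, 14.1 and 37.6 RPKM in TKO-labelled replicates 1 to 4 (log2 difference 1.73, SE 0.47, limma adjusted p = 0.160). TKO-labelled replicate 2 lay inside the Control range. A processed pseudogene of Rab7 is annotated, so reads could be shared with it and the value is uncertain.

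Genes of the apical brush border, the surface that carries the receptors, had 7 of 14 tested, 6 with positive differences and a median of 0.41. The scaffold gene Pdzk1 averaged 9.66 ± 2.96 and 13.6 ± 2.25 RPKM (log2 difference 0.48, limma adjusted p = 0.236), and Vil1, the microvillar actin bundler villin, 6.37 ± 1.90 and 8.61 ± 1.21 RPKM (0.41, limma adjusted p = 0.264). With the visceral endoderm covariate the median of that list was 0.05, and with columns scaled to the same sum, where 9 genes were tested, it was 0.17.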

How the data were processed

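RNA of 8 single embryos (4 Control, 4 TKO) was sequenced after SMARTer cDNA synthesis and Nextera XT library preparation, per the labels' protocols. The authors deposited 1 RPKM value per gene symbol and embryo. HTSeq (no version) and the build mm9 come from the submitters' processing notes. For the aligner, gene models, strand setting and denominator, a statement is not given in the sources used here.

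limma 3.58.1 in R 4.3.3 was run on log2(RPKM + 1), with the eBayes trend, for genes of at least 1 RPKM in at least 4 of 8 embryos. P-values are two-sided, with Benjamini-Hochberg adjustment over all tested genes and a threshold of 0.05. The pseudocount understates changes of low genes. Single values and ratios were compared by exact permutation over all 70 assignments, and correlations by exact permutation of pairings (scipy 1.17.1). The fit was tested on simulated data. The labels call the replicates single embryos, so p-values cover the spread between these 8. Read totals were placed where low RPKM values of genes with 1 transcript, times GENCODE lengths, came out at 1 to 3 whole reads within 2%. At these totals 47.2% to 55.6% of values between 0.03 and 1 RPKM lay at 1 to 10 reads, so whole reads could not be recovered and a count test was left out. Counting error covers sampling of reads only.

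The members and gene lists were chosen with earlier results of these data known. Genes named are the members, Tet1, Tet2, Tet3, the 3 most like each member, the 2 leading genes of each pathway list and the 2 most abundant of each marker list. The result of 1 pathway list is not reported here. Gene positions were not used with mm9 values, and promoter windows are on GRCm38.p6. Alternatives were other pseudocounts, filters, scalings and variance models, marker covariates, a replicate block and leaving out each embryo.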

Additional observations from a re-analysis of the deposited data

How the results depend on the processing

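Of 95 alternative fits of the 5 members, 92 kept the direction of the difference, and in 0 did a member pass the adjusted threshold. Lrp2 turned to -0.11 with the visceral and -0.027 with the parietal endoderm covariate, and Dab2 to -0.10 with the latter. The cause was not tested. Without 1 embryo the difference ranged from 0.29 to 0.81 for Cubn, -0.43 to -0.07 for Amn, 0.00 to 0.31 for Lrp2 and 0.16 to 0.42 for Dab2. Over all alternatives the limma adjusted p of Lrpap1 ranged from 0.0888 to 0.454 and its log2 difference from 0.42 to 0.98. The number of genes past the threshold, 1 over all 8 embryos, was 0 with no filter on low values, 2 with a filter at 5 RPKM or with robust variance, 4 with columns scaled to the same sum, 0 with the visceral and 3 with the parietal endoderm covariate, and 0 to 36 without 1 embryo, the 36 being without TKO replicate 1.

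With the replicate number as a block 0 genes passed, and the adjusted p of Lrpap1 was 0.157. By the labels same-numbered embryos share only a number, and whether they also shared a litter or batch was not tested. Their deviations correlated at 0.00, 0.40, 0.26 and -0.02 for numbers 1 to 4, and 4 of 8 embryos correlated best with their own number. The number of member pairs past the threshold, 4 of 10, was 1 under either scaling and 1 to 3 without 1 embryo. In all of these Cubn with Lrp2 passed. The ratio of Lrp2 to Lrpap1 ranged from -0.74 to -0.60 over 12 alternatives, without a test that could pass on its own. The estimated counting error of the members was below their spread between embryos.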
